A study of Equus caballus with 2 samples.

Results

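The genes described here were 8 chemokine symbols that fibroblasts can express, namely *MIP-2BETA*, *CCL2*, *CXCL8*, *CXCL6*, *CXCL12*, *CXCL14*, *CXCL16* and *CX3CL1*. They were chosen by symbol, with earlier results of these data known, so their levels are a description. Of the 8 symbols, 5 were found among the 21426 genes of the count tables, and all 5 passed a minimum mean of 1 CPM (UMIs per 1000000 UMIs) over both libraries. *CCL2*, *CXCL14* and *CX3CL1* were not found by symbol. A further 5196 genes have an Ensembl identifier and no symbol, and whether these hold the 3 chemokines was not tested. The 5 genes were *MIP-2BETA* (ENSECAG00000010560), *CXCL8* (ENSECAG00000015342), *CXCL6* (ENSECAG00000012742), *CXCL12* (ENSECAG00000019551) and *CXCL16* (ENSECAG00000018406).

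Chemokines are small secreted proteins that guide white blood cells along a gradient, and stromal fibroblasts are one of their sources in the uterus. *MIP-2BETA* (an older name for a relative of *CXCL3*), *CXCL6* and *CXCL8* belong to the CXC chemokines that attract neutrophils through the receptors CXCR1 and CXCR2, and their transcription is known to depend on NF-κB. *CXCL12* binds CXCR4 and the scavenging receptor ACKR3 and is known as a product of stromal cells. *CXCL16* is made as a membrane protein that binds CXCR6 and is shed by the protease ADAM10.

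The cells were endometrial fibroblasts of 4 mares, grown on collagen-coated hydrogels and pooled before loading. The control library came from cells kept for 24 h in medium with BSA and no other supplement, and the TGF-β1 library from cells that received 10 ng/ml human recombinant TGF-β1 in the same medium over the same 24 h. Cells given MFGE8 were not analysed here. With 1 library per condition there is no replicate and no test, the effect of preparing a library and that of the condition cannot be told apart, and every interval below is an exact 95% interval for counting error only.

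Cells with at least 20000 unique molecular identifiers (UMIs, each standing for 1 captured transcript), at least 3500 genes and under 4% mitochondrial UMIs were kept, 3865 of 4384 barcodes in the control library and 4513 of 5124 in the TGF-β1 library. They held 210497250 and 219731144 UMIs, with a median of 50313 and 43142 per cell, and 2 kept barcodes occurred in both libraries. All 6 genes of a TGF-β response list were higher in the TGF-β1 library, and *SMAD7* (log2 fold change 1.05), *PMEPA1* (2.13) and *TGFBI* (2.32) passed 2-fold. Of all 12116 genes that reached a mean of 1 CPM, 3.45% were more than 2-fold higher and 3.46% more than 2-fold lower. All 8 fibroblast markers were above the minimum, 3 of them higher and 5 lower in the TGF-β1 library. *COL1A1* had 5608 and 6376 CPM and *VIM* 4399 and 2240 CPM, and the 2 markers more than 2-fold lower were *PDGFRA* (50.5 and 16.7 CPM) and *THY1* (216 and 87.5 CPM). Of the epithelial list, *EPCAM* had 1 and 3 UMIs, *CDH1* 6 and 4, *MUC1* 140 and 117 and *CLDN4* 19 and 49. *KRT8* went from 114 to 4.48 CPM and *KRT7* from 19.3 to 7.04 CPM, and the list's summed level from 134 to 12.3 CPM. The endothelial list summed to 0.798 and 0.423 CPM. Of the immune list *PTPRC* had 1 and 0 UMIs, *CD3E* 2 and 1, and *CSF1R* 6 and 5. *CD68* had 42.6 and 43.1 CPM. All 8 cycling markers found were lower in the TGF-β1 library, with a summed level of 52.1 against 29.7 CPM.

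Both neutrophil-attracting genes with the highest control levels, *CXCL6* and *MIP-2BETA*, and the stromal *CXCL12* were more than 2-fold lower in the TGF-β1 library, *CXCL8* was lower by less than that, and *CXCL16* was at the same level within counting error. Levels are counts per 1000000 UMIs of all kept cells (CPM). The UMIs were counted at the 3′ end, once per transcript, so the levels were not scaled by gene length.

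*CXCL6*, which encodes granulocyte chemotactic protein, had 519 CPM (109301 UMIs) in the control library and 223 CPM (48926 UMIs) in the TGF-β1 library. TGF-β1 over control, this was a log2 fold change of -1.22 (-1.24 to -1.21). *MIP-2BETA* had 174 CPM (36576 UMIs) in the control and 30.4 CPM (6674 UMIs) in the TGF-β1 library, which was 5.72-fold lower. *CXCL8*, which encodes interleukin 8, had 79.2 CPM (16672 UMIs) and 58.5 CPM (12859 UMIs), a log2 fold change of -0.44 (-0.47 to -0.40). Intervals of this kind take UMIs as independent, although UMIs of 1 gene can be concentrated in few cells. Without the cell richest in *CXCL8* in each library its log2 fold change was -0.50, outside the interval. These 3 genes attract the same cell type, and their ratios spread from -2.52 to -0.44 on the log2 scale.

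*CXCL16* had 24.3 CPM (5114 UMIs) in the control library and 25.1 CPM (5520 UMIs) after TGF-β1. Its log2 fold change of 0.05 had an interval of -0.01 to 0.10, so a difference was not detectable at this depth. *CXCL12* had 6.82 CPM (1436 UMIs) in the control and 0.965 CPM (212 UMIs) after exposure to TGF-β1, and its log2 fold change was -2.82 (-3.04 to -2.61). It was the lowest of the 5 genes in CPM in both libraries and had the most negative log2 fold change, with an interval that lay below that of *MIP-2BETA* (-2.55 to -2.48).

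**Figure D1:**
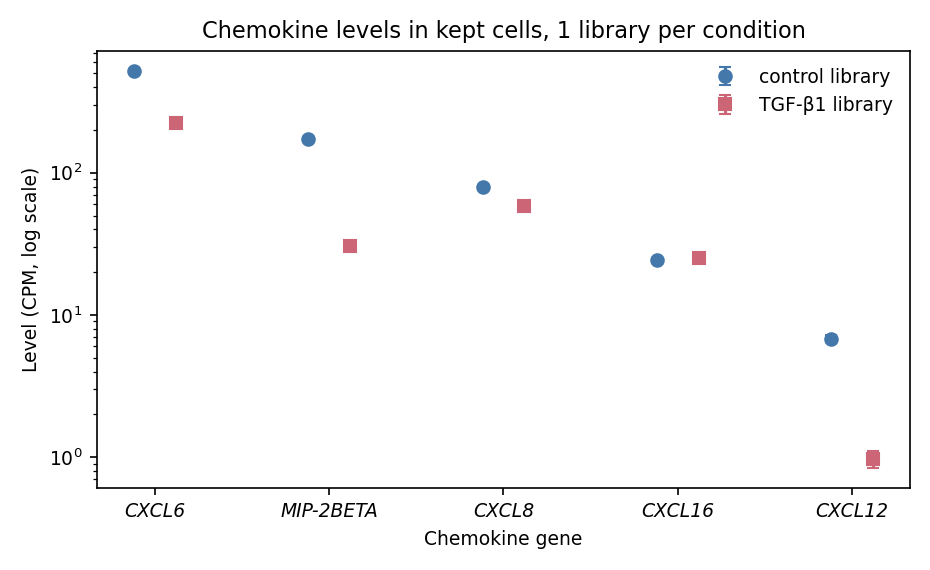
Level of each chemokine gene in CPM (log axis) in the control library (circles) and the TGF-β1 library (squares). Bars are exact 95% counting intervals, which are mostly smaller than the points. *CXCL6*, *MIP-2BETA* and *CXCL12* lie lower in the TGF-β1 library, *CXCL8* is at 79.2 and 58.5 CPM, and *CXCL16* is at 24.3 and 25.1 CPM.

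In CPM the order in the control library was *CXCL6*, *MIP-2BETA*, *CXCL8*, *CXCL16* and *CXCL12*. In the TGF-β1 library *CXCL8* stood above *MIP-2BETA*, and the intervals of neighbours in either order did not overlap. Of the 5 genes, 3 were more than 2-fold lower and 0 more than 2-fold higher, against 3.46% of the 12116 genes at or above a mean of 1 CPM that were more than 2-fold lower and 3.45% that were higher. Among the 7658 genes at or above a mean of 10 CPM these shares were 2.13% and 2.3%. Over the 5 genes the median was -1.22 on the log2 scale, beside -0.01 over the 12116 genes. *CXCL6*, *CXCL8* and *MIP-2BETA* lie in 1 run of neighbouring protein-coding genes with *CXCL1*, *CXCL2* and *PPBP* in the RefSeq table of the assembly TB-T2T, which is not the build of the counts. Neither *CXCL1* nor *CXCL2* is a symbol of the count tables, and whether genes without a symbol hold them was not tested. Whether reads are shared between such close copies was not tested either, so the split of levels between these paralogs is uncertain.

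Among all 19 rows with a chemokine symbol, 8 had a mean of at least 1 CPM, 7 of these were lower in the TGF-β1 library and 4 were more than 2-fold lower, with a median log2 fold change of -1.04. Of the 12116 genes, 6219 were lower and 3.46% more than 2-fold lower. *CCL8*, a CC chemokine that attracts monocytes and other leukocytes, was the highest chemokine in CPM in both libraries, at 713 CPM in the control and 281 CPM after TGF-β1, a log2 fold change of -1.34 (-1.36 to -1.33). *CCL20*, which attracts cells with CCR6, had 2.37 and 1.30 CPM (log2 fold change -0.86, -1.08 to -0.65). *CCL25* had 1.46 and 1.02 CPM (log2 fold change -0.52, -0.77 to -0.26).

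The lower levels in the TGF-β1 library came with fewer cells that held a transcript and with fewer transcripts in those cells, in proportions that differed between the genes. To set cells of unequal depth side by side, UMIs were drawn at random from each kept cell down to 20000 (thinning). No kept cell was shallower than that. *MIP-2BETA* was then found in 50.3% (48.7% to 51.9%) of control cells and in 23.5% (22.3% to 24.8%) of TGF-β1 cells. Without thinning the shares were 63.5% and 36.2%. In cells where it was found, the mean was 7.20 UMIs in the control and 2.499 UMIs in the TGF-β1 library. On the log2 scale the share of cells accounted for -1.10 and the mean per positive cell for -1.53 of its thinned ratio.

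*CXCL6* was found in 74.6% (73.2% to 76.0%) of thinned control cells and in 55.7% (54.2% to 57.1%) of thinned TGF-β1 cells (84.8% and 66.6% without thinning). Its mean in positive cells was 14.1 and 7.83 UMIs. The change in the mean was the larger component, at -0.85 against -0.42 for the share on the log2 scale. Cells with at least 10 UMIs of *CXCL6* made up 30.8% of the control and 13.2% of the TGF-β1 cells, and cells with at least 10 UMIs of *MIP-2BETA* made up 10.8% and 0.753%.

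*CXCL8* was concentrated in few cells in both libraries. It was found in 22.0% (20.7% to 23.4%) of thinned control cells and in 18.9% (17.8% to 20.1%) of thinned TGF-β1 cells (28.1% and 25.7% without thinning), with a mean of 7.04 and 6.44 UMIs in positive cells. The 5% of cells with the most *CXCL8* held 67.9% of its unthinned UMIs in the control and 73.6% in the TGF-β1 library. For *MIP-2BETA* the same share of cells held 41.9% and 52.8%, and for *CXCL6* 34.3% and 42.4%. The highest single cell held 308 UMIs of *CXCL8* in the control and 814 in the TGF-β1 library.

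*CXCL16* showed the opposite form, with few transcripts in each of many cells. It was found in 35.9% (34.4% to 37.4%) and 34.8% (33.4% to 36.2%) of thinned cells (64.2% and 58.1% without thinning), and positive cells held a mean of 1.36 and 1.42 UMIs. No thinned cell of either library held 10 or more UMIs of *CXCL16*. *CXCL12* was found in 11.2% (10.2% to 12.2%) of thinned control cells and 1.88% (1.51% to 2.32%) of thinned TGF-β1 cells (20.7% and 4.25% without thinning). A second random draw gave 1.42% of TGF-β1 cells, outside that interval. In cells thinned to 10000 UMIs the shares of *CXCL12* were 6.62% and 0.997%. Its thinned level is near that of 1 UMI per positive cell, so its change is read from the CPM.

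**Figure D2:**
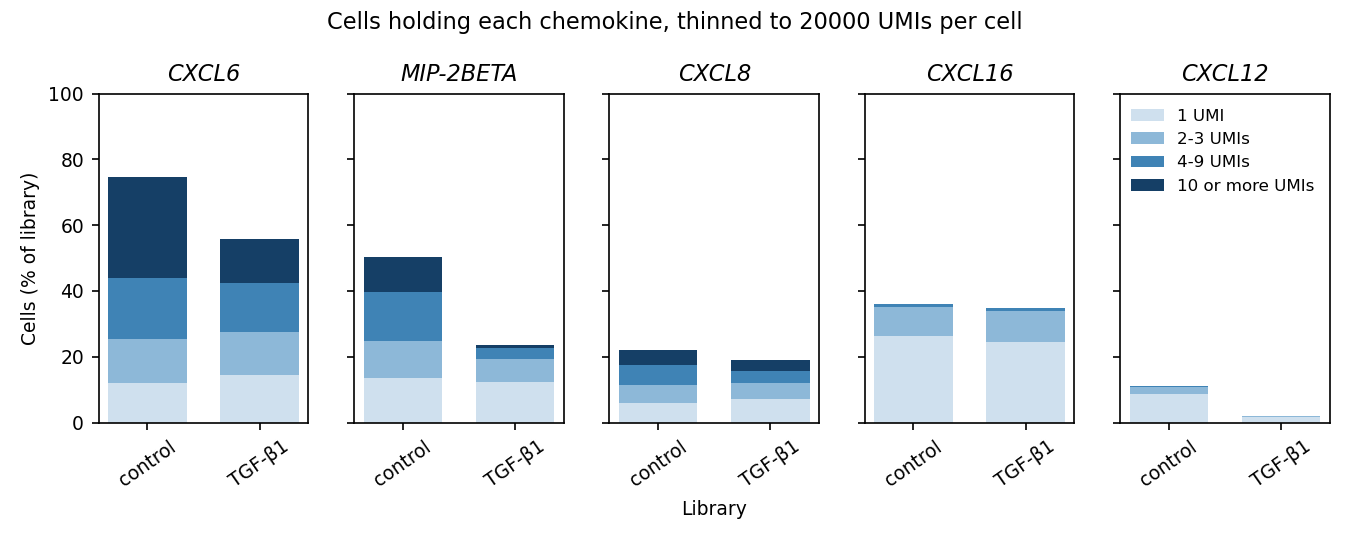
Percent of kept cells that held 1, 2 to 3, 4 to 9 or 10 or more UMIs of each gene, after every cell was thinned to 20000 UMIs, by library. The darkest segment, 10 or more UMIs, goes from 30.8% to 13.2% of cells for *CXCL6* and from 10.8% to 0.753% for *MIP-2BETA*, while the bars of *CXCL16* are of nearly equal height.

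Free RNA in the droplets gives UMIs to cells that do not make a transcript, and no cell type that should lack these genes was present to measure it, so the shares are those of cells with a UMI. Between the rebuilt clusters described below, the thinned share of control cells with *CXCL12* ran from 2.44% (1.45% to 3.83%) to 27.8% (19.6% to 37.2%).

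The neutrophil-attracting chemokines were found in the same cells more often than independent detection would give. The pairs with *CXCL12* had wide intervals, most of which included 1. In the control library 95.1% of the 852 thinned cells with *CXCL8* also held *CXCL6*, against 68.9% of cells without *CXCL8*. In the TGF-β1 library the shares were 83.2% of 853 cells and 49.2%. The number of cells with both was 1.27 times that expected under independence in the control (1.20 to 1.35) and 1.495 times in the TGF-β1 library (1.40 to 1.60). The largest ratio that the shares of cells allow was 1.34 in the control and 1.80 in the TGF-β1 library. Such ratios are therefore not on a like scale between libraries, here or for the other pairs. The Spearman correlation of both genes across thinned cells was 0.43 in the control and 0.38 in the TGF-β1 library.

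*MIP-2BETA* and *CXCL8* were found together in 626 control cells, 1.46 times (1.36 to 1.57) the expected number, and in 299 TGF-β1 cells, 1.49 times (1.33 to 1.66). For *MIP-2BETA* and *CXCL6* the observed over expected ratio was 1.13 (1.08 to 1.17) in the control and 1.28 (1.19 to 1.36) in the TGF-β1 library. The Spearman correlations of this pair were 0.37 in the control and 0.22 in the TGF-β1 library. Those of *MIP-2BETA* and *CXCL8* were 0.30 and 0.14. All 3 genes were found in 598 control cells (15.5%), where independence would give 8.28%, and in 261 TGF-β1 cells (5.78%), where it would give 2.48%. Cells with none of the 3 made up 16.9% of the control library and 35.2% of the TGF-β1 library.

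Of the 10 pairs of the 5 genes, 10 in the control and 9 in the TGF-β1 library were found together more often than expected, and the interval lay above 1 for 5 pairs in each library. These intervals cover the count of cells with both and take the expected number as fixed. An interval that includes 1 therefore does not show independence. *CXCL6* and *CXCL16* in the control were at 1.04 (0.99 to 1.09), with *CXCL16* in 37.4% of cells with *CXCL6* and 31.6% of cells without it. The pair with the lowest ratio was *MIP-2BETA* and *CXCL12* in the TGF-β1 library, at 1.00 (0.61 to 1.54) over 20 cells. *CXCL16* with *MIP-2BETA* was at 1.09 and 1.17. When the expected number was summed within rebuilt clusters, *CXCL8* and *CXCL6* remained at 1.27 in the control and 1.47 in the TGF-β1 library.

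**Figure D3:**
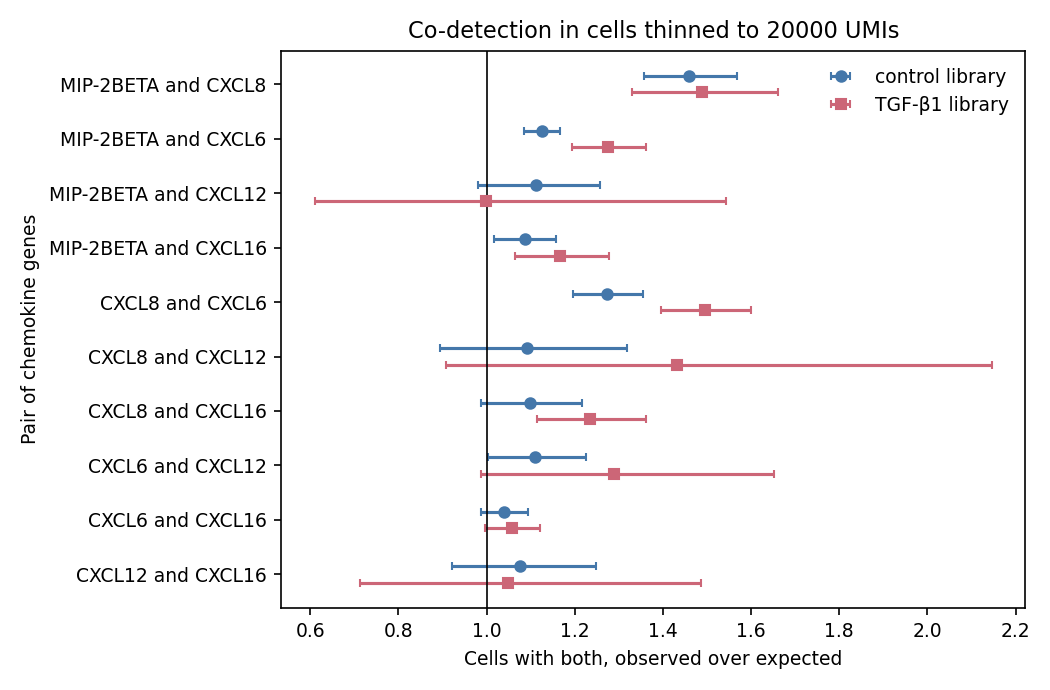
Number of thinned cells in which both genes of a pair were found, over the number expected if detection were independent within the library, for the 10 pairs. Circles are the control and squares the TGF-β1 library, and the line at 1 marks independence. Bars are exact 95% counting intervals of the cells with both, with the expected number taken as fixed. The largest possible ratio differs between pairs and libraries. *MIP-2BETA* with *CXCL8* lies at 1.46 and 1.49, and *CXCL8* with *CXCL6* at 1.27 and 1.495, while pairs with *CXCL12* have wide intervals.

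Cells were also split by whether *CXCL8* was found. Cells with *CXCL8* had 1129 CPM of *CXCL6* against 335 CPM in cells without it in the control library, and 522 against 145 CPM in the TGF-β1 library. For *MIP-2BETA* the values were 341 against 123 CPM in the control and 54.6 against 24.1 CPM in the TGF-β1 library. *CXCL12* had 7.05 against 6.75 CPM in the control and 1.30 against 0.878 CPM in the TGF-β1 library, where the first value rests on 59 UMIs. The cells with *CXCL8* were slightly deeper, with a median of 52478 against 49713 UMIs in the control and 46272 against 42604 in the TGF-β1 library.

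For *MIP-2BETA*, *CXCL8* and *CXCL6* the genes whose level across cells was most like theirs included other chemokines. Likeness is the smaller of both within-library Pearson correlations across the 3865 control and 4513 TGF-β1 cells, on the log(1 + UMIs per 10000) scale, among 11745 genes, and it describes cells that share a library. For *MIP-2BETA* the leading genes were *NFKBIA*, which encodes the NF-κB inhibitor IκBα (r = 0.54 in control and 0.40 in TGF-β1 cells), *TNFAIP3*, which encodes the inhibitor A20 (0.40 and 0.34), and *CCL8* (0.46 and 0.32). *CXCL8* was most like *CXCL6* (0.48 and 0.45) and *CCL8* (0.38 and 0.29). *CXCL6* was most like *CXCL8*, *CCL8* (0.50 and 0.33) and *MIP-2BETA* (0.42 and 0.29). No gene reached the limit of 0.2 for *CXCL12*, whose best value was 0.061, or for *CXCL16*, at 0.170. In control cells alone *CXCL12* was at 0.25 with ENSECAG00000024946 and at 0.21 with *DPT*. The smaller values of these genes came from the TGF-β1 library, where *CXCL12* had 212 UMIs.

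**Figure D4:**
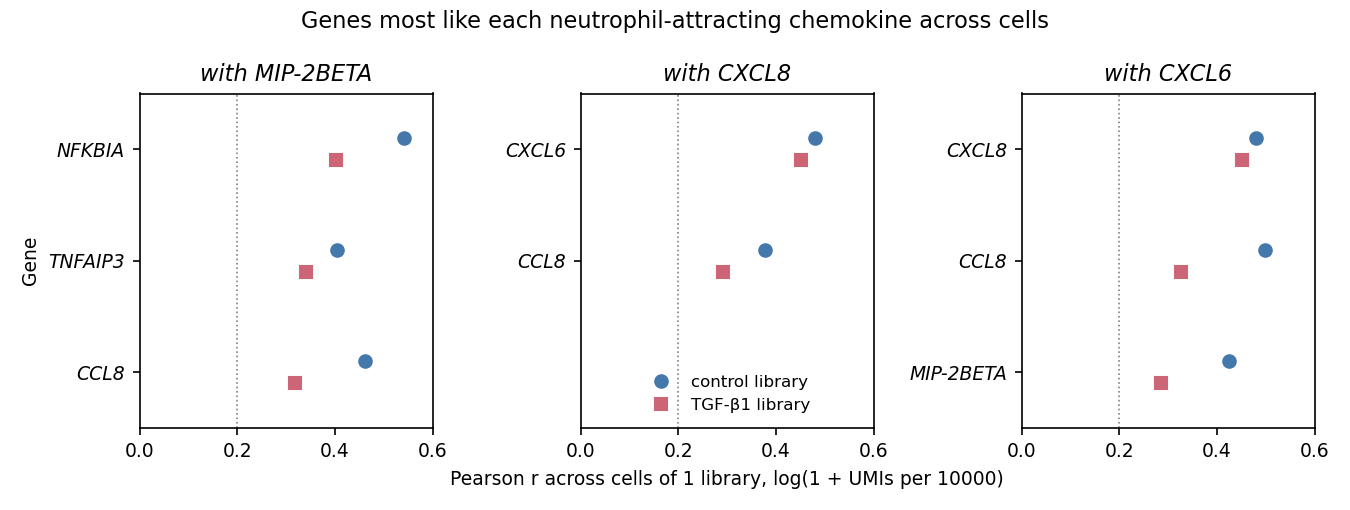
Pearson correlation across the cells of 1 library, on the log(1 + UMIs per 10000) scale, of *MIP-2BETA*, *CXCL8* and *CXCL6* with the up to 3 genes most like each. Circles are control and squares TGF-β1 cells, and the dotted line marks the limit of 0.2. *NFKBIA* leads for *MIP-2BETA* at 0.54 and 0.40, and *CXCL8* and *CXCL6* lead for each other.

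The kept cells were clustered again with the chemokine genes left out of the variable genes, which gave 8 clusters of 108 to 748 control cells and 57 to 1097 TGF-β1 cells. Across them the lower level of *MIP-2BETA*, *CXCL6* and *CXCL12* was found in 8 of 8 clusters. The sign of *CXCL8* and *CXCL16* was not the same in all clusters, with several intervals that included 0. *MIP-2BETA* was more than 2-fold lower in 8 clusters, with log2 fold changes from -3.42 to -1.63, and *CXCL12* likewise in 8, from -3.34 to -1.65. *CXCL6* ran from -1.82 to -0.74 and was more than 2-fold lower in 4. These clusters share the same 2 libraries and are not replicates. Without integration of the libraries, *CXCL6* was lower in 2 of 6 clusters that gave a ratio, of which 1 held at least 50 cells of each library, and there it was lower.

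*CXCL8* was lower in 6 of 8 clusters, with an interval below 0 in 5, and in cluster 4 it was at 0.02 (-0.07 to 0.11). The lowest log2 fold change was -1.23 in cluster 3, whose leading genes by fold include *EPHA6*, *EDIL3* and *PTGS2*, and the highest was 1.45 in cluster 7. Cluster 7, led by *CA4*, *SUSD4*, *HBA2* and *CDKN1A* and left unnamed, holds 108 control and 57 TGF-β1 cells. Of its 1539 *CXCL8* UMIs in the TGF-β1 library, 814 came from 1 cell and 87.6% from 3 cells. Without the top cell of each library the log2 fold change was 0.80, and without the top 3 cells it was -0.59. *CXCL16* was lower in 3 clusters and higher in 5, from -0.35 in the cycling-like cluster 6 to 0.44 in cluster 2, which is led by *SPP1*, *KRT7* and *KRT8*. The interval lay below 0 in 1 cluster and above 0 in 1, and in the other 6 it included 0.

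**Figure D5:**
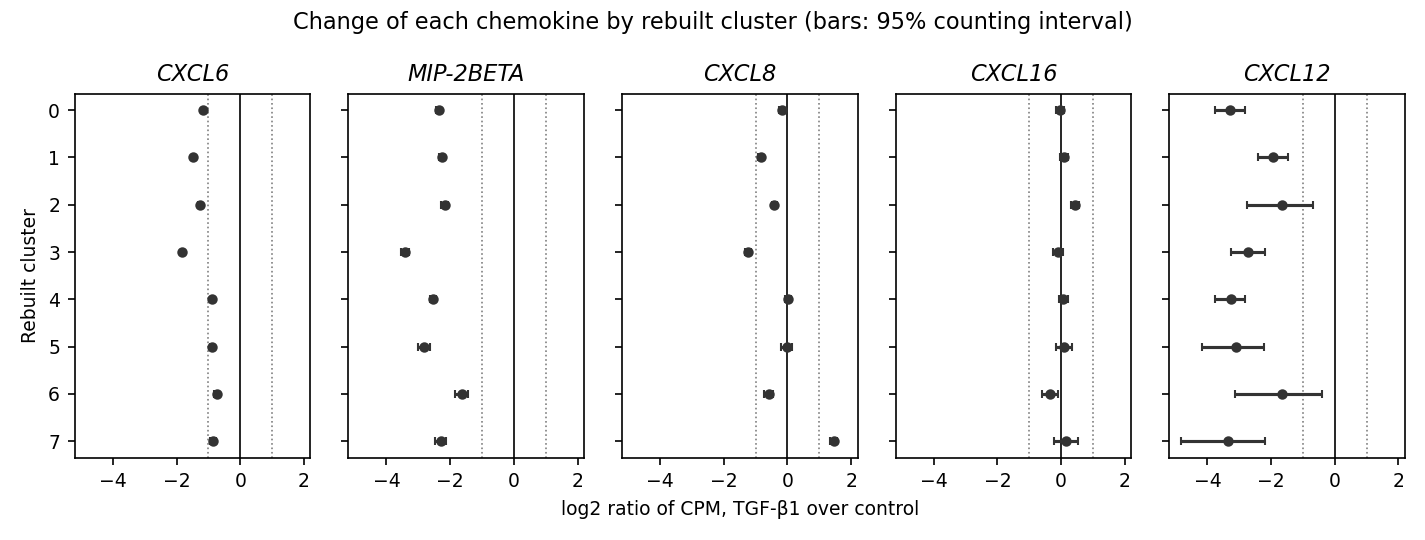
Log2 fold change of CPM, TGF-β1 over control, of each chemokine gene in the 8 rebuilt clusters, with exact 95% counting intervals. The line marks 0 and the dotted lines a 2-fold change. *MIP-2BETA* and *CXCL12* lie beyond the lower dotted line in 8 clusters, *CXCL8* runs from -1.23 to 1.45, and *CXCL16* stays between -0.35 and 0.44.

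In the control library cluster 7 had the highest CPM of *MIP-2BETA* (530 CPM), *CXCL8* (207 CPM), *CXCL6* (788 CPM) and *CXCL12* (22.4 CPM), and few of its 108 control cells carried much of this. The 3 cells richest in each gene held 48.7% of its *CXCL8* UMIs, 38.8% of its *CXCL6* UMIs and 28.4% of its *MIP-2BETA* UMIs. Without the 3 richest cells of every cluster, an alternative chosen after seeing the data, cluster 7 had 394 CPM of *MIP-2BETA*, 109.4 CPM of *CXCL8* and 17.2 CPM of *CXCL12*, still the highest of the 8 clusters. Its *CXCL6* was then 499 CPM, the fifth of 8, and cluster 4 was highest at 541 CPM. Cluster 2 had the lowest *CXCL12*, at 1.12 CPM with all cells and 0.961 CPM without the 3 richest. With all cells *CXCL12* differed 20.0-fold between clusters in CPM, *MIP-2BETA* 6.54-fold, *CXCL8* 3.46-fold, *CXCL6* 2.02-fold and *CXCL16* 1.84-fold, and without the 3 richest cells 17.9-fold, 5.71-fold, 3.10-fold, 1.51-fold and 1.77-fold.

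*KRT8* was lower in the TGF-β1 library together with the chemokines. In the 2906 control and 4370 TGF-β1 cells without it after thinning, the log2 fold change was -2.62 for *MIP-2BETA*, -0.55 for *CXCL8*, -1.37 for *CXCL6*, -2.98 for *CXCL12* and 0.05 for *CXCL16*. Cells that lost *KRT8* under TGF-β1 would be among the 4370, so these values cannot tell them apart from cells that never held it. The 959 control cells with *KRT8* had less *CXCL6* (366 against 574 CPM) and less *MIP-2BETA* (142 against 185 CPM) than the control cells without it. For *CXCL8* the control values were 63.5 against 84.8 CPM. In the TGF-β1 library the 143 cells with *KRT8* had 227 against 223 CPM of *CXCL6*, 35.1 against 30.2 CPM of *MIP-2BETA* and 80.1 against 57.8 CPM of *CXCL8*. The lower levels of the control were thus not seen there. The values of the 143 cells rest on 1667, 258 and 589 UMIs. The cycling markers, of which 8 of 8 were more than 2-fold higher in cluster 6 than in other cells, were also lower in the TGF-β1 library, and their part in the chemokine levels was not tested.

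Of the receptors measured, those above the minimum were scavenging receptors. Of 23 receptor symbols, 21 were found, 2 reached a mean of 1 CPM and 5 were at 0 in both libraries. *CXCR1* and *CXCR5* were not found by symbol. *ACKR3*, which takes up *CXCL12*, had 65.5 and 55.0 CPM (log2 fold change -0.25). *ACKR4*, which scavenges chemokines that include *CCL20* and *CCL25*, had 57.2 CPM in the control and 27.6 CPM in the TGF-β1 library (log2 fold change -1.05, -1.10 to -1.01). *CXCR2* had 8 UMIs in each library, *CXCR4* 6 and 15, and *CXCR6* 3 and 5.

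Of 8 proteases known to shed or cut chemokines, 7 had a mean of at least 1 CPM, with a median log2 fold change of -0.06, and 2 were more than 2-fold higher, beside 3.45% of all 12116 genes. These were the collagenase gene *MMP1*, at 2.27 and 7.38 CPM (log2 fold change 1.70), and the gelatinase gene *MMP9*, at 4.07 and 11.7 CPM (1.52). *ADAM10*, whose product sheds *CXCL16*, had 37.6 and 33.8 CPM.

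Regulators of NF-κB were measured with 18 symbols, of which 17 were found and 1 of them, *BIRC3*, in 2 rows. Of the 17 rows that reached a mean of 1 CPM, 15 were lower in the TGF-β1 library, 2 were more than 2-fold lower and 0 more than 2-fold higher, with a median log2 fold change of -0.40. *NFKBIA* had 186 and 79.5 CPM (log2 fold change -1.23, -1.26 to -1.20), and *BCL3*, which encodes a nuclear cofactor of NF-κB, 12.6 and 5.19 CPM (-1.28). *TNFAIP3*, named for its likeness to *MIP-2BETA*, had 11.6 and 6.03 CPM (-0.95). The count of 2 in 17 stands beside 3.46% of all genes.

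Of 21 genes for inflammatory cytokines, adhesion molecules and related products, 13 had a mean of at least 1 CPM, 10 of them were lower, 4 more than 2-fold lower and 1 more than 2-fold higher, with a median log2 fold change of -0.55. Over all 12116 genes 3.46% were more than 2-fold lower and 3.45% higher. *VCAM1*, which encodes a vascular and stromal adhesion molecule, had 1473 UMIs in the control and 4 in the TGF-β1 library (6.998 and 0.0182 CPM). *SAA1*, which encodes the acute phase protein serum amyloid A, had 24.8 and 7.52 CPM (log2 fold change -1.72), *IL1A* had 1.60 and 0.587 CPM (-1.45), and *CSF1*, a macrophage growth factor, had 28.4 and 13.8 CPM (-1.05). *IL11*, an IL-6 family cytokine known as a TGF-β target in fibroblasts, was the gene past 2-fold in the other direction, at 150 and 1993 CPM (3.73).

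The control cells with *VCAM1*, a split chosen after its values were seen, were also richer in the chemokines. The 188 control cells in which it was found had 188 CPM of *CXCL8* against 73.5 CPM in the other control cells, 978 against 495 CPM of *CXCL6* and 12.9 against 6.51 CPM of *CXCL12*. *CXCL16* had 29.6 against 24.0 CPM. These are cells of 1 library, so the values describe that library.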

How the data were processed

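The authors deposited raw UMI counts per gene and cell barcode for each library, made by Cell Ranger on the EquCab3.0 genome with Ensembl genes. The methods name version 7.1.0 and the file headers 8.0.1. The submitters' notes also name Seurat 5 and edgeR 4.2.2, used by the study downstream of these counts. The study's filters and its doublet removal by genotype had not been applied to the deposited counts. Cells were kept by the study's UMI, gene and mitochondrial limits, which left out 519 control and 611 TGF-β1 barcodes. Doublets were not removed, because Scrublet in scanpy 1.11.5 marked 1 control and 0 TGF-β1 cells. In a culture of fibroblasts only, it can miss doublets of like cells, so the kept cells may include doublets.

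UMIs were summed per library and scaled to CPM in Python 3.11.15 (numpy 2.4.6, scipy 1.17.1, pandas 2.3.3, matplotlib 3.10.9). Ratios carry no pseudocount, and none is given where both libraries held 3 or fewer UMIs. Clusters were made in Seurat 5.3.0 with R 4.3.3 (2000 variable genes less 7 chemokine genes, 30 dimensions, canonical correlation integration, resolution 0.5). The ratio was tested on simulated data.

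The members and lists were chosen with earlier results of these data known. The text names the members, other chemokines with a mean of at least 1 CPM, receptors, proteases, NF-κB regulators and inflammatory genes past 2-fold from the lists, up to 3 genes most like each member, and TGF-β response genes. List genes below 2-fold that act on a member, cell type markers and leading genes of clusters were named after their values were seen. By symbol, 2 receptors, 1 NF-κB regulator, 2 epithelial and 1 cycling gene were not found. The summed level of the immune list is not reported here. Alternatives covered cell filters, doublets, scaling, thinning, clustering and the fold and CPM limits.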

Additional observations from a re-analysis of the deposited data

Results flagged for a closer look

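The log2 fold change of *CXCL8* was 1.45 (1.34 to 1.57) in rebuilt cluster 7 and -1.23 (-1.32 to -1.13) in rebuilt cluster 3, so the direction differed between clusters of the same 2 libraries. The difference was not tested, since each condition is 1 library, and in cluster 7 the ratio was -0.59 without the 3 highest cells of each library. The log2 fold change of *CXCL16* was 0.44 (0.32 to 0.55) in cluster 2 and -0.35 (-0.60 to -0.11) in cluster 6, and this difference was not tested either.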

How the results depend on the processing

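Under 11 alternatives the number of members past 2-fold was 3 lower and 0 higher, and no log2 fold change changed direction. With a limit of 1.5-fold in place of 2-fold, the numbers were also 3 and 0. The ratios ran from -2.61 to -2.48 for *MIP-2BETA*, -0.54 to -0.29 for *CXCL8*, -1.28 to -1.21 for *CXCL6*, -3.02 to -2.75 for *CXCL12* and 0.04 to 0.10 for *CXCL16*. The background moved from 3.46% of genes lower and 3.45% higher to 2.13% and 2.3% at a mean of at least 10 CPM. Pairs found together more often than expected numbered 9 to 10 in the control and 8 to 10 in the TGF-β1 library. Without integration the share of clusters with a lower level was 83.3% for *MIP-2BETA* and 33.3% for *CXCL6* (6 clusters with a ratio), 40% for *CXCL8* and 80% for *CXCL16* (5 clusters) and 100% for *CXCL12* (1 cluster). Of these, 1 cluster held at least 50 cells of each library, a limit set after seeing the data, and all 5 genes were lower in it. Leaving out the top cell, leaving out the 3 richest cells of each cluster, leaving out cluster 7 and requiring 2 UMIs of each gene were added after seeing the data. No paired analysis was possible because the labels give no replicate numbers and the deposited counts were not split by mare here. The depth limits *CXCL12* after TGF-β1, with 212 UMIs, and most receptors.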

Other observations

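The barcodes left out by the filters, 519 in the control and 611 in the TGF-β1 library, gave log2 fold changes of -1.55 (-1.80 to -1.30) for *MIP-2BETA*, -0.51 (-0.79 to -0.23) for *CXCL8*, -1.55 (-1.72 to -1.38) for *CXCL6*, -2.31 (-4.07 to -0.86) for *CXCL12* and 0.04 (-0.49 to 0.56) for *CXCL16*. In the TGF-β1 library these barcodes had 43.1 CPM of *MIP-2BETA*, above the 30.4 CPM of the kept cells, and 92.0 CPM of *CXCL6*, below the 223 CPM of the kept cells.

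*CCL26* and *CCL28*, named after their values were seen, lay under the minimum mean of 1 CPM and were higher in the TGF-β1 library. *CCL26*, an eosinophil attractant, had 149 UMIs in the control and 263 in the TGF-β1 library (log2 fold change 0.76, 0.46 to 1.06). *CCL28*, a chemokine of mucosal surfaces, had 65 and 150 UMIs (1.14, 0.72 to 1.59).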
